A study of Mus musculus with 36 samples.

Results

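The genes described here encode the ubiquitin-conjugating enzymes (Ube2, or E2) and the ubiquitin-specific proteases (Usp), the largest family of deubiquitinases. They were taken from the count tables by symbol, as names made of Usp and a number or starting with Ube2, with the Usp17l copies and Usp9y left out. This gave 87 of the 25239 genes in the table of P-body and cytoplasm libraries, of which 49 were Usp and 38 were Ube2 genes. The same rule gave 87 of 25229 genes in the table of polysome-bound and total RNA and 92 of 48440 in the table of Ago2 knockout (KO) libraries. The latter also listed the pseudogenes Ube2d4, Ube2nl, Ube2l3-ps1 and Ube2n-ps1 and the antisense gene Ube2uos. The rule also took in Ube2cbp, which carries an E2 symbol but is not an E2, and the pseudogene Ube2d-ps.

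The series holds 36 mouse samples in 16 groups of 2 or 3 replicates. P-bodies, cytoplasmic condensates of untranslated RNA and protein, were purified by particle sorting from cells with a lentiviral GFP-LSM14A transgene under the EF1a promoter, and each sort was set beside the presort cytoplasm, which still contains its P-bodies. The sorted cells were v6.5 embryonic stem (ES) cells kept naive in 2i/LIF, the same ES cells primed with activin A, bFGF and KSR, and mouse embryonic fibroblasts (MEFs) that carry a doxycycline-inducible OKSM cassette in Col1a1, M2-rtTA in Rosa26 and Pou5f1-EGFP. MEFs were also sorted at day 3 of doxycycline with a control or a Nudt21 shRNA, and ES cells were sorted after deletion of exon 1 of Ago2 by CRISPR-Cas9. Polysome-bound and total RNA came from cloned ES cells that also carry GFP-LSM14A and in which both Ddx6 alleles carry an FKBP12F36V degron. How many clones were used is not stated. The degron tag directs the protein to degradation once dTAG-13 is added. The cells had dTAG-13 for 6 h or the DMSO control, and both groups were given cycloheximide before harvest. The tag is therefore shared by the control and the DDX6-depleted cells.

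Ubiquitin is activated by an E1 enzyme, handed to the catalytic cysteine of an E2 and passed with the help of an E3 ligase to a substrate, while deubiquitinases use a cysteine of their own to take it off again. The E2 chosen largely sets which kind of chain is built, and Usp enzymes edit or remove chains on histones, DNA repair factors, endosomal cargo and proteasome substrates. In ES cells the system is known for controlling the stability of pluripotency factors, the p53 pathway and the cell cycle.

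Coding windows of 30 bases around the catalytic cysteine are shown for the E2 pairs whose transcripts parted in naive cells and for Usp7, the deubiquitinase of MDM2 and p53. They were read from the mm10 genome with GENCODE transcripts, and the capitals mark the cysteine codon.
Ube2a: gcagatggtagtataTGTctggatatactt
Ube2b: gctgatggtagcataTGTttagatatcctg
Ube2d1: agcaacgggagtattTGTcttgacatcctg
Ube2d3: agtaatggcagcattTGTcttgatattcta
Usp7: aatcagggagcaacgTGTtacatgaatagc

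The cysteine was codon 88 in both Ube2a and Ube2b, the RAD6 enzymes that ubiquitinate histones and PCNA. It was codon 85 in Ube2d1 and Ube2d3, which serve a broad range of E3 ligases. The coding sequences of Ube2a and Ube2b were 77.6% identical over 456 bases and those of Ube2d1 and Ube2d3 77.3% identical over 441 bases, with 102 and 100 bases differing. Ube2a lies on X:36873900-36884222 (plus strand), Ube2b on 11:51985497-52000762 (minus strand), Ube2d1 on 10:71254980-71285262 (minus strand), Ube2d3 on 3:135438149-135468198 (plus strand) and Usp7 on 16:8689595-8792308 (minus strand), all protein-coding genes in mm10. Exons of 30 of the 87 members overlapped another annotated gene, for 26 of them on the opposite strand. The P-body and cytoplasm libraries were not made with a kit that marks strand, so reads of such overlaps cannot be assigned. Ube2d3 overlapped 4930539J05Rik, Usp14 overlapped Thoc1 and Usp16 overlapped Cct8.

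Libraries held 6769727 to 31185799 reads in the P-body and cytoplasm table, 15624342 to 17486206 in the Ago2 KO table and 13308776 to 29362187 in the polysome table, and the members together took 0.479% to 0.936% of them. Replicates of a group correlated at Spearman coefficients of 0.907 to 0.997 over 24 pairs. The 5 pluripotency markers summed to 3260 to 6270 CPM, read counts scaled to library size, in naive libraries and to at most 0.869 CPM in MEFs. Nudt21 stood at 5.01 to 5.96 CPM with its shRNA and at 89.1 to 115 CPM in the day 3 control. Ago2 stood at 2.57 to 4.52 CPM in the KO libraries and at 67.2 to 111 CPM in the naive libraries, which were counted by another pipeline. The tagged Ddx6 transcript does not report the loss of its protein and lay at 186 to 238 CPM in total RNA of both groups. In MEF P-bodies all 5 lung epithelium markers were detected, summing to 5.93 to 88.1 CPM against 0.0641 to 0.166 CPM in MEF cytoplasm, where each library detected 1 of the 5. The 7 fibroblast markers summed to 12900 to 13700 CPM in MEF P-bodies and 36500 to 39700 CPM in MEF cytoplasm. The part of either list in the MEF results was not tested.

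P-body enrichment is given as the log2 ratio of P-body to cytoplasm CPM from edgeR's quasi-likelihood fit, ± its standard error, with p-values adjusted by Benjamini-Hochberg over all genes of the fit. A gene was called higher or lower at an adjusted p under 0.05. In bulk libraries fewer cells of a type and less RNA per cell cannot be told apart. The study describes its replicates as biologically independent samples, and no label says what a replicate number of the sorted fractions stands for.

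In naive ES cells the transcripts of deubiquitinases lay mostly on the P-body side. Of 48 Usp genes tested, 26 were higher in P-bodies and 3 were lower, with a median log2 ratio of 0.57. The 34 Ube2 genes tested split evenly, with 9 higher and 9 lower and a median of 0.05. Over all 15630 genes tested, 22.6% were called higher and 15.4% lower, with a median of -0.06. The 5 members not tested for want of reads were Ube2d2b, Ube2dnl1, Ube2dnl2, Ube2u and Usp18.

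Usp7 had 315 and 320 CPM in naive P-bodies and 218 and 231 CPM in naive cytoplasm. Both P-body libraries were above both cytoplasm libraries, at a log2 ratio of 0.50 ± 0.10 (adjusted p = 0.0126), but the call was lost without either P-body library (adjusted p up to 0.202). Ube2d3 had 439 and 434 CPM against 145 and 168 CPM. Its ratio of 1.48 ± 0.11 (adjusted p = 0.000713) kept its call with any 1 library left out. The farthest apart among members with at least 10 CPM was Usp53, a tight-junction protein of the family, with 197 and 161 CPM in P-bodies and 12.4 and 22.4 CPM in cytoplasm (3.36 ± 0.30, adjusted p = 0.00101). Ube2v2, a partner of Ube2n that lacks a catalytic cysteine, had 109 and 122 CPM against 18.7 and 23.4 CPM (2.46 ± 0.15, adjusted p = 0.000457). For these 4 genes the fractions did not overlap, and the P-body libraries were the high ones.

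Grouped by function, 6 of 8 members listed for DNA damage or PCNA were higher in naive P-bodies and none was lower, with a median log2 ratio of 1.01. Over all genes 22.6% were higher and 15.4% lower. Ube2a and Ube2b, which also act on PCNA, were listed with the histone enzymes, and Ube2a was lower. Usp1, which deubiquitinates PCNA and FANCD2, had 287 and 285 CPM in P-bodies and 112 and 113 CPM in cytoplasm (1.34 ± 0.09, adjusted p = 0.000573). Of the 3 members acting on free chains or at the proteasome, the proteasome-bound Usp14 had 560 and 559 CPM against 159 and 162 CPM (1.80 ± 0.09, adjusted p = 0.000414), and Usp13 had 47.6 and 58 CPM against 11.2 and 14.3 CPM (2.05 ± 0.19, adjusted p = 0.0011). The third, Usp5, which takes apart free chains, lay the other way without reaching the threshold, with 240 and 247 CPM against 360 and 290 CPM (-0.42 ± 0.13, adjusted p = 0.0576). Usp15, which acts on TGF-beta signaling, had 344 and 330 CPM against 107 and 106 CPM (1.67 ± 0.10, adjusted p = 0.000424). The calls of Usp1, Usp13, Usp14 and Usp15 were kept with any 1 library left out. Among 11 members acting on histones or chromatin 5 were higher and 2 lower, beside the same 22.6% and 15.4% of all genes. Usp16, a deubiquitinase of histones, had 95.6 and 98.5 CPM in P-bodies and 32.6 and 36.4 CPM in cytoplasm (1.49 ± 0.12, adjusted p = 0.000714). Usp22 of the SAGA complex lay the other way, with 176 and 163 CPM against 246 and 241 CPM (-0.52 ± 0.10, adjusted p = 0.0119), a call lost without either P-body library.

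The paralogs whose sequences are given above parted in naive cells. Ube2a had 46.3 and 45.8 CPM in P-bodies and 91.4 and 106 CPM in cytoplasm (-1.10 ± 0.12, adjusted p = 0.00201). Ube2b had 50.3 and 47.8 CPM in P-bodies and 22 and 26.9 CPM in cytoplasm (1.003 ± 0.15, adjusted p = 0.00514). Ube2d1 was lower in P-bodies, with 8.66 and 8.91 CPM against 15.7 and 14.4 CPM (-0.78 ± 0.18, adjusted p = 0.0231), whereas Ube2d3 was higher. In each pair the fractions of both genes were apart without overlap and in opposite directions. The calls of Ube2b and Ube2d1 were lost without either naive P-body library, with adjusted p up to 0.0701 and 0.238. Those of Ube2a and Ube2d3 were kept with any 1 library left out.

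Other Ube2 genes lower in naive P-bodies included the E2 of the NEDD8 modifier, Ube2m, with 57.7 and 60 CPM in P-bodies and 112 and 110 CPM in cytoplasm (-0.92 ± 0.10, adjusted p = 0.00188). The E2 pair of the anaphase-promoting complex lay there as well. Ube2s, which extends its chains, had 225 and 228 CPM against 421 and 513 CPM (-1.05 ± 0.13, adjusted p = 0.00268), and Ube2c, which starts them, had 188 and 190 CPM against 240 and 299 CPM (-0.51 ± 0.13, adjusted p = 0.0329). Ube2m and Ube2s lost their calls without naive P-body replicate 1, and Ube2c without either P-body library. Of the 47 calls in naive cells, 17 were kept with any 1 library left out, and the number of members called ranged from 18 without naive P-body replicate 1 and 20 without replicate 2 up to 65.

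**Figure D1:**
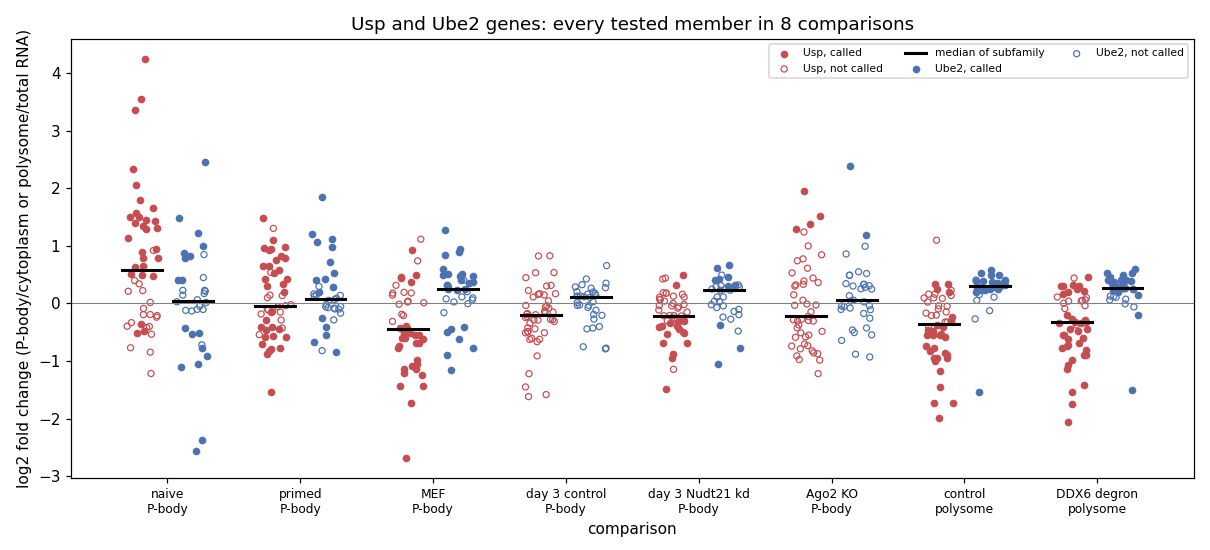
Log2 ratios of the Usp and Ube2 genes in each comparison (points, 1 per gene; filled where the adjusted p is under 0.05). Usp genes lay above 0 in naive P-bodies, with a median of 0.57, and below 0 in MEF P-bodies and in polysome-bound RNA, with medians of -0.44 and -0.35, while Ube2 medians were 0.05, 0.26 and 0.31.

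In primed ES cells Usp genes no longer lay mostly on 1 side. Of 49 tested, 18 were higher and 15 lower in P-bodies, with a median of -0.04, and of 34 Ube2 genes 11 were higher and 5 lower, with a median of 0.08. Over all genes 26.5% were higher and 24.2% lower. Usp7 had 204 and 208 CPM in P-bodies and 232 and 213 CPM in cytoplasm and was not called (-0.11 ± 0.06, adjusted p = 0.156). Ube2d3 had 573 and 522 CPM against 277 and 276 CPM (0.98 ± 0.06, adjusted p = 2.52e-08). Among members of at least 10 CPM, Usp53 again had the highest ratio, with 131 and 127 CPM against 44.5 and 47.9 CPM (1.48 ± 0.08, adjusted p = 1.72e-08). Ube2r2, an E2 of cullin-based ligases, had 276 and 276 CPM against 128 and 137 CPM (1.06 ± 0.06, adjusted p = 2.72e-08).

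On the other side in primed cells was Usp9x, a large X-linked deubiquitinase, with 176 and 188 CPM in P-bodies and 324 and 324 CPM in cytoplasm (-0.83 ± 0.06, adjusted p = 1.5e-07). Ube2s was lower in primed P-bodies too, at 177 and 205 CPM against 334 and 354 CPM (-0.85 ± 0.07, adjusted p = 7.23e-07). Usp28, a deubiquitinase of the DNA damage response, had 100 and 105 CPM against 176 and 174 CPM (-0.77 ± 0.07, adjusted p = 9.91e-07), and the nucleolar Usp36 had 38.8 and 45.4 CPM against 75.3 and 78.5 CPM (-0.87 ± 0.10, adjusted p = 9.55e-06). In each of these 4 genes both P-body libraries were below both cytoplasm libraries. Ube2a and Ube2b were not called in primed cells, with ratios of -0.07 ± 0.12 and -0.17 ± 0.08, nor was Ube2d1 at 0.05 ± 0.14. The members named in primed cells kept their calls with any 1 library left out, as did 37 of the 49 called.

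In MEFs Usp genes lay mostly on the cytoplasm side, unlike in naive cells, while Ube2 genes were called higher more often than lower. Of 45 Usp genes tested, 26 were lower in P-bodies and 5 were higher, with a median of -0.44. Of 35 Ube2 genes 18 were higher and 7 lower, with a median of 0.26. Over all genes 26.6% were higher and 28.7% lower, 55.3% in all, with a median of 0.03, so the share of Usp genes called higher was below the background and that of Ube2 genes above it. Usp26, Usp43, Usp50 and Usp51 had too few reads to test in MEFs.

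Usp7 was among the 5 Usp genes higher in MEF P-bodies, with 39.6 and 37.4 CPM against 27.6 and 28.3 CPM (0.46 ± 0.11, adjusted p = 0.00473). Ube2d3 had 527 and 500 CPM against 430 and 434 CPM (0.25 ± 0.08, adjusted p = 0.0241). Both calls were lost without either MEF cytoplasm library, with adjusted p up to 0.0718 and 0.16. Ube2v2 had the highest ratio of the well-expressed members, with 159 and 129 CPM against 52.5 and 66.7 CPM (1.27 ± 0.14, adjusted p = 6.25e-05).

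Ube2a and Ube2m, lower in naive P-bodies, were higher in those of MEFs. Ube2a had 104 and 89.6 CPM in MEF P-bodies and 53.6 and 54.7 CPM in MEF cytoplasm (0.84 ± 0.10, adjusted p = 0.00013). Ube2m had 138 and 154 CPM against 63.1 and 87.7 CPM (0.95 ± 0.15, adjusted p = 0.000476). Neither pair of fractions overlapped, and both calls were kept with any 1 library left out. Ube2b was called higher as well, with 122 and 98.5 CPM against 79.1 and 91.4 CPM (0.37 ± 0.12, adjusted p = 0.0305), but lost the call without MEF P-body replicate 1 or either cytoplasm library.

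Among deubiquitinases of endosomes, membranes and mitochondria 6 of 7 were lower in MEF P-bodies and none was higher, with a median of -0.69. Over all genes 28.7% were lower and 26.6% higher. Usp genes as a whole lay mostly on the lower side in MEFs, so the count is not read as a trait of this role. Usp9x had 91.8 and 91.2 CPM in P-bodies and 241 and 250 CPM in cytoplasm (-1.42 ± 0.09, adjusted p = 4.04e-06). Usp8, which acts on the endosomal sorting machinery and its cargo, had 70.7 and 85.3 CPM against 151 and 155 CPM (-0.97 ± 0.11, adjusted p = 6.68e-05). Usp22 had the lowest ratio of the well-expressed members called without overlap, with 63.3 and 52 CPM against 160 and 150 CPM (-1.43 ± 0.11, adjusted p = 1.12e-05). Usp47, which acts on base excision repair, had the same direction, with 294 and 320 CPM against 691 and 724 CPM (-1.21 ± 0.08, adjusted p = 6.47e-06). These 4 calls were kept with any 1 library left out. Of the 56 calls in MEFs 28 were kept throughout, and the number called fell to 29 without cytoplasm replicate 1 and to 35 without replicate 2.

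**Figure D2:**
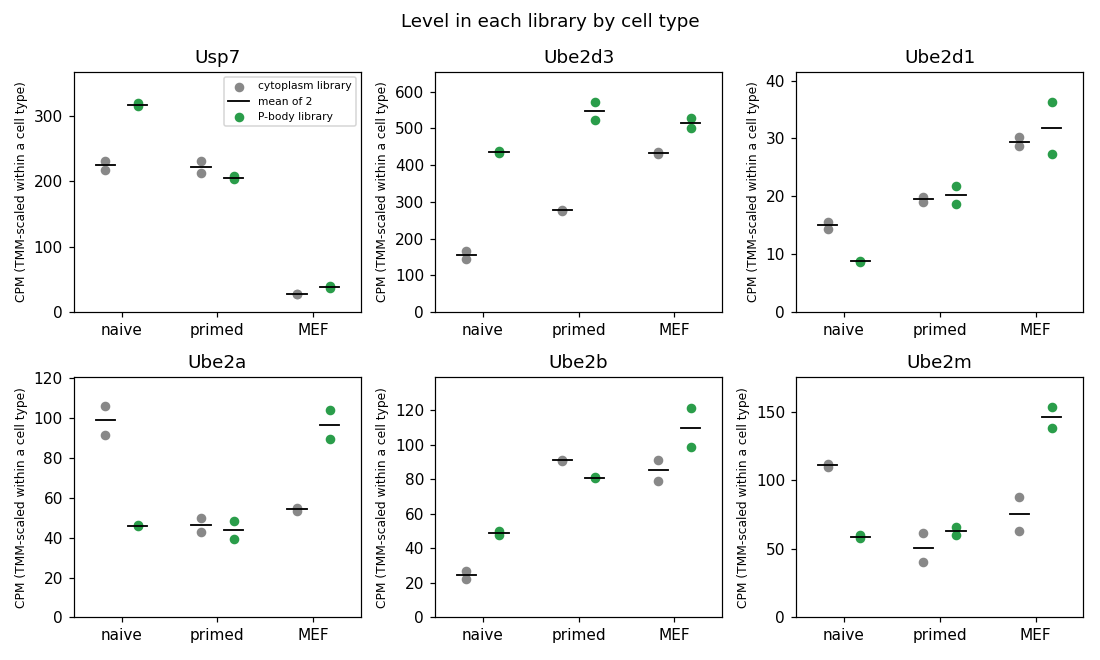
CPM of Usp7, Ube2d3, Ube2d1, Ube2a, Ube2b and Ube2m in each naive, primed and MEF library (points, with lines at the mean of 2), P-body beside cytoplasm, each cell type scaled within its own fit. Ube2a and Ube2m sat lower in naive P-bodies than in cytoplasm and higher in MEF P-bodies than in cytoplasm, while Ube2d3 was higher in the P-bodies of each cell type.

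Across the 3 cell types 7 of 78 members tested in each (8.97%) were called higher in P-bodies each time, beside 5.32% of all genes. They were Ube2d3, Ube2r2, Ube2v2, Ube2w, Usp14, Usp16 and Usp34. Ube2w, which ubiquitinates protein N termini, had log2 ratios of 1.22, 1.11 and 0.50 in naive, primed and MEF cells. Another 5 members, the E2-E3 hybrid enzyme Ube2o, Ube2z, which takes ubiquitin from the E1 Uba6, and Usp19, Usp22 and Usp48, were lower each time (6.41%), beside 4.50% of all genes. The naive calls of the 5 lower members and of Ube2r2 and Ube2w were lost without either naive P-body library. The MEF calls of Ube2d3 and Ube2r2 were lost without either MEF cytoplasm library and those of Usp14 and Usp34 without cytoplasm replicate 1, so only Ube2v2 and Usp16 kept their calls throughout, of these 12 members, with any 1 library left out. Of 78 members tested in both naive cells and MEFs, 15 were higher in naive and lower in MEF P-bodies, which was 45.5% of the 33 higher in naive and 45.5% of the 33 lower in MEFs. Over all genes tested in both, these shares were 35.1% and 27.0%. All but Ube2g1 were Usp genes, namely Usp8, Usp11, Usp12, Usp13, Usp25, Usp32, Usp33, Usp37, Usp40, Usp42, Usp46, Usp47, Usp53 and Usp54. Usp53, far up in naive P-bodies, had 25 and 26.3 CPM in MEF P-bodies and 39.7 and 35.6 CPM in MEF cytoplasm (-0.55 ± 0.11, adjusted p = 0.00254), a call lost without MEF cytoplasm replicate 1 (adjusted p = 0.079). Usp25 had 74.6 and 81.4 CPM against 121 and 130 CPM (-0.69 ± 0.10, adjusted p = 0.000264) and kept its call. Another 10 were higher in both, or 12.8% of the 78, beside 6.46% of all genes tested in both. Lower in naive and higher in MEF P-bodies were 3, Ube2a, Ube2c and Ube2m. They made up 3.85% of the 78, near the 4.41% of all genes.

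The difference in enrichment between cell types was tested as an interaction in 1 fit. Between naive and MEF cells 34 of 85 members had a higher naive ratio and 15 a lower one, beside 21.5% and 19.8% of all genes, or 41.3% in either direction. Usp genes made up most of the first set, with 25 higher and 2 lower of 49 and a median difference of 0.88, while Ube2 genes had 9 higher and 13 lower of 36 and a median of -0.30. The median over all genes was -0.17. The largest differences among members of at least 10 CPM were those of Usp53 (3.72 ± 0.33, adjusted p = 2.46e-05), Usp13 (2.48 ± 0.25, adjusted p = 4.77e-05) and Usp25 (2.08 ± 0.17, adjusted p = 2.08e-05). In the other direction stood Ube2a (-2.13 ± 0.17, adjusted p = 1.85e-05), Ube2m (-2.06 ± 0.21, adjusted p = 5.59e-05) and Ube2l6, the E2 of the ISG15 modifier (-2.84 ± 0.47, adjusted p = 0.000876). Ube2d3 differed by 1.04 ± 0.15 (adjusted p = 0.000354), and these 7 calls were kept with any 1 library left out. No difference was detected for Usp7 (-0.15 ± 0.14, adjusted p = 0.428).

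Against primed cells, with the same naive libraries on 1 side, 23 of 83 members had a higher naive ratio and 8 a lower one, beside 13.9% and 11.4% of all genes. Of 49 Usp genes 19 were higher and none lower, with a median of 0.42. Usp53 differed by 1.74 ± 0.31 (adjusted p = 0.00411), Ube2v2 by 1.6 ± 0.18 (adjusted p = 0.000613) and Usp44, a deubiquitinase of histones, by 1.46 ± 0.28 (adjusted p = 0.00532). Ube2a and Ube2b differed in opposite directions, by -1.17 ± 0.19 (adjusted p = 0.00307) and 1.03 ± 0.16 (adjusted p = 0.00231), and both calls were kept with any 1 library left out. Ube2m differed by -1.36 ± 0.23 (adjusted p = 0.00364). Without naive cytoplasm replicate 2 the number of members called was 52. Usp7 differed by 0.47 ± 0.12 (adjusted p = 0.018), a call lost without either naive P-body library, and Ube2d3 was not called (0.36 ± 0.13, adjusted p = 0.0783).

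**Figure D3:**
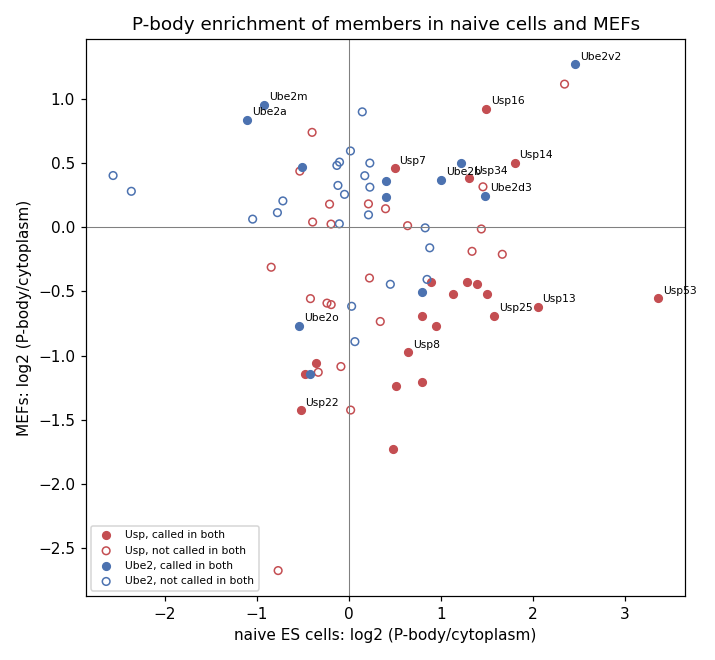
Log2 P-body enrichment in naive ES cells (x axis) against MEFs (y axis) for each Usp and Ube2 gene tested in both (filled where called in both). Usp genes fill the lower right, where 15 members are called higher in naive and lower in MEF P-bodies, and Ube2a, Ube2c and Ube2m lie in the upper left.

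At day 3 of reprogramming no member was called in control cells by edgeR's quasi-likelihood test, where 0.196% of all genes were called higher and 0.450% lower (0.646% in all). In that test 19 of 80 members had an unadjusted p under 0.05, and DESeq2 called 13. Shares of all genes under other settings are not given here, so counts under them do not set the members apart from other genes. The number called rose to 54 without control P-body replicate 1 and to 28 without replicate 2. Usp7 had 58.1 and 54 CPM in P-bodies and 58.1 and 57 CPM in cytoplasm, and Ube2d3 had 391 and 341 CPM against 334 and 336 CPM. Neither was called, with ratios of -0.04 ± 0.13 (adjusted p = 0.883) and 0.13 ± 0.12 (adjusted p = 0.529). Usp16 came closest to the threshold among the members described, with 117 and 111 CPM against 66.5 and 62.5 CPM (0.82 ± 0.12, adjusted p = 0.0504).

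Set against untreated MEFs, day 3 control cells had a higher ratio for 9 of 83 members and a lower ratio for 3, beside 9.59% and 5.13% of all genes. Ube2m fell from 0.95 in MEFs to -0.75 at day 3, with 82.6 and 71.2 CPM in P-bodies and 120 and 139 CPM in cytoplasm, a difference of -1.66 ± 0.22 (adjusted p = 0.00208) and the only 1 of the 12 calls kept with any 1 library left out. Ube2a had 49.6 and 52.6 CPM against 46.7 and 47.4 CPM and differed by -0.68 ± 0.17 (adjusted p = 0.0243). Usp9x rose by 1.22 ± 0.23 (adjusted p = 0.00738), Usp53 by 1.13 ± 0.20 (adjusted p = 0.00547) and Usp47 by 1.08 ± 0.28 (adjusted p = 0.0276). These 4 calls were each lost without either day 3 control cytoplasm library, with adjusted p up to 0.179 for Usp47. The number called was 1 without day 3 cytoplasm replicate 1 or 2, 2 and 4 without MEF cytoplasm replicate 1 and 2, 5 without MEF P-body replicate 2, and 26 and 33 without day 3 P-body replicate 1 and 2.

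With the Nudt21 shRNA 2 of 47 Usp genes were higher in day 3 P-bodies and 15 lower, with a median of -0.21, and 7 of 33 Ube2 genes were higher and 3 lower, with a median of 0.23, beside 9.04% and 12.8% of all genes. Ube2o had 27.9 and 40.7 CPM in P-bodies and 67.2 and 75 CPM in cytoplasm (-1.05 ± 0.16, adjusted p = 0.00178). Usp31 had 26.7 and 27.1 CPM against 48.6 and 50.8 CPM (-0.89 ± 0.11, adjusted p = 0.000751). Both genes were lower in each P-body library than in each cytoplasm library. Ube2v2 had 49.2 and 41.4 CPM against 29 and 27.7 CPM (0.67 ± 0.13, adjusted p = 0.00494), a call lost without cytoplasm replicate 2. Ube2d3 had 348 and 317 CPM against 274 and 261 CPM (0.31 ± 0.09, adjusted p = 0.031), lost without either cytoplasm library, and Usp7 was not called (-0.08 ± 0.12, adjusted p = 0.702). Only 6 of the 27 calls were kept with any 1 library left out, and the number called fell to 8 and 6 without cytoplasm replicate 1 or 2 and was 45 without P-body replicate 2. The 4 blood markers summed to 102 to 112 CPM with the shRNA and to 11.4 to 16.1 CPM in the control, the 7 fibroblast markers to 2200 to 2920 CPM and to 6520 to 8060 CPM, and the part of either list in these values was not tested. The difference in enrichment between shRNA and control was called for 0 of 82 members by edgeR and by DESeq2, with 5 at an unadjusted p under 0.05, and for 0.0118% of all genes. It was called for 12 members without control P-body replicate 1.

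In Ago2 KO ES cells, in the fit without a replicate block, 6 of 82 members were higher in P-bodies and none was lower, beside 5.47% and 1.05% of all genes, or 6.51% in either direction. They were Ube2v2, Ube2w, Usp15, Usp16, Usp29 and Usp53. Each was also called higher in naive P-bodies, where 22.6% of all genes were. The share among all genes called higher in Ago2 KO P-bodies is not given here, so the overlap is not read as a trait of the members. Ube2v2 had 407 and 357 CPM in P-bodies and 88.7 and 57.2 CPM in cytoplasm (2.39 ± 0.32, adjusted p = 0.00376) and was the 1 call kept with any 1 library left out. Usp53 had 21.1 and 31.4 CPM against 7.88 and 10.4 CPM (1.52 ± 0.30, adjusted p = 0.0188), lost without P-body replicate 2. Usp16 had 60.2 and 58.6 CPM against 23.3 and 22.2 CPM (1.39 ± 0.23, adjusted p = 0.00922), and Usp15 had 186 and 196 CPM against 68.5 and 86.6 CPM (1.30 ± 0.27, adjusted p = 0.0244), both lost without either P-body library. Usp7 and Ube2d3 were not called, with ratios of -0.30 ± 0.28 (adjusted p = 0.562) and 0.86 ± 0.28 (adjusted p = 0.108). The number called was 38 without cytoplasm replicate 1, 14 without replicate 2, and 2 and 1 without P-body replicate 1 or 2. The KO libraries were counted in another table than the naive ones, so the difference in enrichment was not tested.

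Ribosome occupancy, the log2 ratio of polysome-bound to total RNA, divided the families in control ES cells. Of 34 Ube2 genes 26 were higher in polysomes and 1 was lower, with a median of 0.31, while of 48 Usp genes 4 were higher and 25 lower, with a median of -0.35. Over all 15411 genes tested 18.8% were higher and 24.1% lower, 42.9% in all, with a median of 0.02. The 1 Ube2 gene lower in polysomes was Ube2o.

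Usp7 had 228, 218 and 227 CPM in the 3 polysome libraries and 452, 463 and 390 CPM in the 3 of total RNA. Every polysome library was below every total library, at -0.95 ± 0.07 (adjusted p = 9.46e-09). Ube2d3 had 809, 835 and 808 CPM in polysomes and 658, 640 and 612 CPM in total RNA (0.36 ± 0.06, adjusted p = 0.000125). Usp5 had the lowest ratio, with 53.3, 51 and 56 CPM in polysomes and 200, 202 and 234 CPM in total RNA (-1.99 ± 0.07, adjusted p = 3.41e-12). Usp19, which is anchored in the endoplasmic reticulum membrane, had 43.1, 40.1 and 44.5 CPM against 134, 143 and 144 CPM (-1.73 ± 0.07, adjusted p = 4.88e-12). In these 2 genes total RNA exceeded polysome-bound RNA in every library. Usp9x followed the same direction, with 157, 154 and 170 CPM against 579, 557 and 448 CPM (-1.72 ± 0.09, adjusted p = 8.64e-11). Ube2v2 had the highest ratio of a well-expressed member, with 175, 164 and 207 CPM against 131, 118 and 116 CPM (0.58 ± 0.08, adjusted p = 2.28e-05), and its partner Ube2n, which builds signaling chains, had 323, 330 and 357 CPM against 241, 237 and 220 CPM (0.53 ± 0.06, adjusted p = 4.22e-06). The paralogs that parted in naive P-bodies were all higher in polysomes, as Ube2a and Ube2b had ratios of 0.37 ± 0.07 and 0.41 ± 0.06, and Ube2d1 had 0.37 ± 0.08. For each gene named here the groups did not overlap, and each call was kept with any 1 library left out, as were 46 of 56.

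By function, all 6 Ube2d and Ube2e genes tested were higher in polysomes, at a median of 0.35, and all 3 members acting on free chains or at the proteasome were lower, at -0.82. Of 7 deubiquitinases of endosomes, membranes and mitochondria 5 were lower and none higher. Over all genes 18.8% were higher and 24.1% lower. Ube2 genes as a whole lay mostly higher and Usp genes mostly lower, so these counts are not read as traits of the roles. Enrichment in naive P-bodies and ribosome occupancy went opposite ways for 12 members, Usp7, Usp8, Usp11, Usp13, Usp14, Usp15, Usp29, Usp33, Usp34, Usp37, Usp47 and Usp54, which were higher in naive P-bodies and lower in polysomes. These were 34.3% of the 35 members higher in naive P-bodies and 46.2% of the 26 lower in polysomes, where the shares over all genes were 30.1% and 28.1%. Another 12 members, 9 of them Ube2 genes, were higher in both fractions, or 34.3% and 40.0% of those higher in each, beside 23.5% and 28.3% over all genes. Usp14, for example, had 114, 104 and 122 CPM in polysomes and 204, 212 and 184 CPM in total RNA (-0.82 ± 0.07, adjusted p = 1.07e-07).

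**Figure D4:**
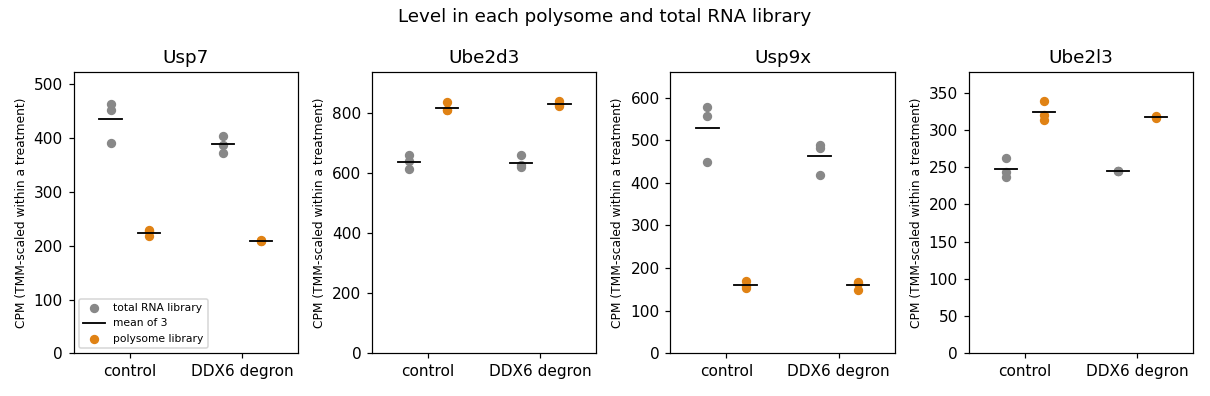
CPM of Usp7, Ube2d3, Usp9x and Ube2l3 in each polysome and total RNA library (points) of control and DDX6-depleted ES cells. In both groups Usp7 and Usp9x were lower in polysomes than in total RNA, and Ube2d3 and Ube2l3 were higher.

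After depletion of DDX6, a P-body helicase and translational repressor, 23 of 34 Ube2 genes were higher in polysomes and 2 lower, with a median of 0.27, and 9 of 48 Usp genes were higher and 28 lower, with a median of -0.33, beside 24.0% and 26.8% of all genes. Usp7 had 210, 208 and 210 CPM in polysomes and 388, 372 and 405 CPM in total RNA (-0.89 ± 0.04, adjusted p = 3.41e-14), and Ube2d3 had 839, 822 and 826 CPM against 660, 626 and 618 CPM (0.39 ± 0.04, adjusted p = 3.93e-08). Usp5 and Usp9x were again low, at -2.06 ± 0.05 and -1.53 ± 0.06, and Ube2w and Ube2v2 high, at 0.60 ± 0.06 and 0.53 ± 0.05. The difference in occupancy between depleted and control cells was called for 0 of 82 members by edgeR and by DESeq2, with 3 at an unadjusted p under 0.05, and for 0% of all genes. For Usp7 it was 0.06 ± 0.08 (adjusted p = 0.945) and for Ube2d3 0.02 ± 0.07 (adjusted p = 0.984). In total RNA 0 of 82 members were called by edgeR, beside 1.24% of all genes higher and 2.07% lower (3.31% in all). DESeq2 called 3 members, 18 had an unadjusted p under 0.05 in edgeR, and the number called was 23 without control total replicate 3. The shares of all genes under those settings are not given here. Total Usp7 RNA stood at -0.17 and Ube2d3 RNA at -0.01 on the log2 scale of depleted over control cells.

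Features that the choice of genes did not use differed between the families. The median coding sequence of the members tested in naive cells was 2756 bases for Usp and 549 bases for Ube2 genes, with a median coding GC of 47.8% and 48.2%, against 1401 bases and 53.5% over all genes with a transcript. In naive cells the log2 ratio correlated with coding GC at a Spearman coefficient of -0.66 within Usp (48 genes) and -0.69 within Ube2 genes (33 genes), and at -0.56 over all genes. In MEFs that coefficient was -0.19 over the members and -0.06 over all genes, whereas coding length correlated at -0.47 and -0.45. Control ribosome occupancy correlated with coding length at -0.76 over 81 members, -0.41 within Usp, -0.49 within Ube2 and -0.59 over all genes. These are descriptions across genes that share libraries, and genes are not independent replicates. In both paralog pairs the gene lower in naive P-bodies had the higher coding GC, 48.2% for Ube2a and 44.5% for Ube2b, and 47.6% for Ube2d1 and 41.0% for Ube2d3. The pairs were picked because they parted in naive cells, so they add nothing to the correlation. Ube2d2a, with a coding GC of 42.9%, had a naive ratio of 0.23 and was not called.

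**Figure D5:**
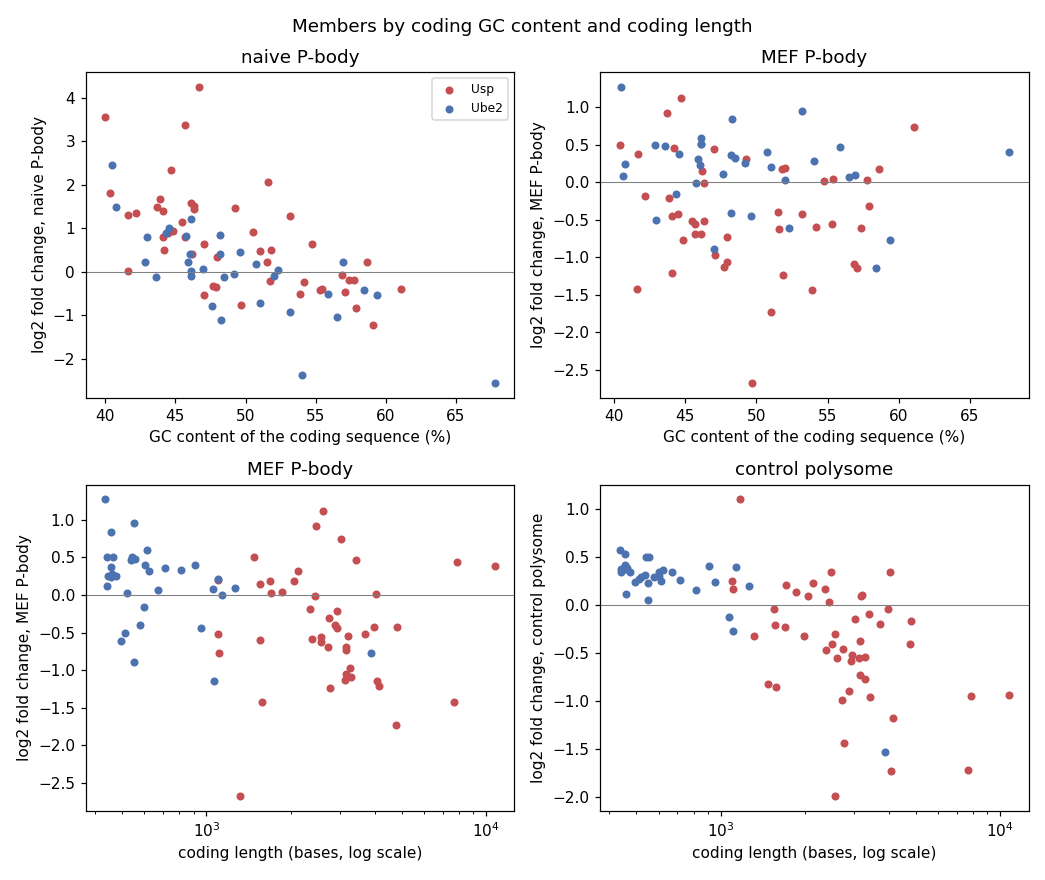
Log2 ratios of Usp and Ube2 genes against coding GC (percent) in naive cells and MEFs, and against coding length (bases, log axis) in MEFs and in control polysomes. The ratio falls with GC in naive cells (-0.66 over 81 members) and with length in control polysomes (-0.76).

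MicroRNAs bind sites in 3′ UTRs through their seed. miR-294 belongs to a cluster abundant in ES cells, whereas let-7 rises on differentiation. The mature sequences are given with the seed, bases 2 to 8, in capitals (RefSeq, mouse), followed by the matches in 3 members with high naive ratios, where the capitals mark the complement of the miR-294 seed.
mmu-miR-294-3p: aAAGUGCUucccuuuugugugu
mmu-let-7a-5p: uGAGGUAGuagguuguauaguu
Ube2v2: ggaacttacagAGCACTTgttgtgacacc
Usp53: tgcttttgcagAGCACTTtctagtgggta
Ube2b: aattggagaaaAGCACTTaaagtttttta

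The site AGCACTT, searched on the transcript strand only, was present in the 3′ UTR of 18 of 83 members, or 21.7%, against 14.2% of 16915 genes with a 3′ UTR. The let-7 site CTACCTC was present in 8 members, or 9.64%, against 8.63%. Members with AGCACTT had a median naive ratio of 0.73 and those without 0.12, and over all genes the medians were 0.32 and -0.12. The members with and without the let-7 site were also apart in naive cells, at 0.67 and 0.23, beside 0.04 and -0.07 over all genes. In primed cells the let-7 medians of members were -0.1 and 0.07, beside -0.02 and 0.01 over all genes. The MEF values were -0.43 and 0.03, beside -0.25 and -0.01. Only 8 members had the let-7 site, and their UTRs were longer, at a median of 2440 bases against 1228 bases in naive cells. For AGCACTT the members' medians were 0.47 and -0.05 in primed cells, beside 0.1 and -0.01 over all genes. In MEFs they were 0.0 and -0.07, beside -0.27 and 0.01. In Ago2 KO cells the members' medians for AGCACTT were 0.30 and -0.10, and those over all genes 0.05 and -0.02. The KO libraries were counted in another table, and a difference from naive cells was not tested. UTRs with AGCACTT were longer, at a median of 2517 bases against 1198 bases among the members tested in naive cells. Ube2d3, Usp14 and Usp16 had high naive ratios and no AGCACTT in the 3′ UTR of the transcript used. In turn, Usp24 and Usp9x had the site and naive ratios of -0.53 and 0.02, neither of them called.

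The rest of the pathway gave a mixed picture. As background, 22.6% of all genes were higher and 15.4% lower in naive P-bodies, 26.6% and 28.7% in MEF P-bodies, and 18.8% and 24.1% in control polysomes. Of 12 genes for ubiquitin and the E1 enzymes 4 were higher and 3 lower in naive P-bodies, and 1 higher and 5 lower in control polysomes. The E1 pair for ubiquitin was split, as Uba6 had a naive ratio of 3.02, a MEF ratio of -1.06 and an occupancy of -1.85, whereas Uba1 had -0.55, -1.22 and -2.77. Among 26 deubiquitinases of other families 9 were higher and 3 lower in naive P-bodies and 8 higher and 9 lower in MEF P-bodies. Of 8 cofactors of Usp proteins 6 were higher and 1 lower in naive P-bodies, and Wdr48, the activator of Usp1, had 1.07 in naive cells and -0.62 in MEFs. Of 49 E3 ligases 21 were higher and 10 lower in naive P-bodies, 10 higher and 27 lower in MEF P-bodies, and 7 higher and 34 lower in control polysomes, where their median was -0.57.

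Over the 8 enrichment and occupancy comparisons, the members whose log2 ratios followed those of Usp7 most closely were Ube2o, Usp34 and Usp14, with Pearson coefficients of 0.913, 0.879 and 0.821 among 76 members. Those closest to Ube2d3 were Usp42, Usp25 and Usp53, at 0.955, 0.951 and 0.94. The comparisons share no library with each other, and 8 points describe only these cells. A Pearson coefficient takes no account of level. Ube2o was lower in naive and MEF P-bodies, at -0.54 and -0.77, where Usp7 was higher, at 0.50 and 0.46.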

How the data were processed

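P-body, cytoplasm, polysome and total RNA libraries were sequenced as described in the report. From sorted P-bodies and cytoplasm the authors prepared SMART-Seq v4 and Nextera XT libraries. Apart from the Ago2 KO libraries, they aligned read pairs to mm10 with HISAT2 and counted refGene exons with featureCounts. For the polysome and total RNA libraries they ran salmon through nf-core on mm10 refGene. The authors deposited these tables as estimated counts per gene, not normalized, of which 5.05% to 25.7% per library were not whole. The Ago2 KO counts came from salmon as well, and their annotation is not given in the sources used here. The deposited tables of the authors' own comparisons hold fold changes and p-values and were not used.

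Counts were rounded, genes with at least 10 reads over the libraries of a fit were kept, and edgeR 4.0.16 (R 4.3.3) was run with TMM scaling and the quasi-likelihood test, with p-values adjusted by Benjamini-Hochberg over all genes and a threshold of 0.05. Each comparison was fitted on its own groups, and differences between cell types as interactions. CPM are TMM-scaled within a fit, so levels are not compared between cell types. Alternatives were DESeq2 1.42.0, its size factors in edgeR, other filters, a replicate block, 1 joint fit per table and leaving out each library in turn. In simulated data 76% of 100 genes changed by 2 and 50% of 100 changed by 1 on the log2 scale were recovered for the naive comparison over 15417 genes. No other genes were changed there, whereas 38.0% of all genes were called in the naive data. The adjusted p depends on that share, so the recovery does not carry over to the naive data.

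Genes were matched to GENCODE M21 by symbol, and for 86 of 87 members the longest complete coding transcript was used. Named genes are Usp7 and Ube2d3, members described by role, and per comparison up to 5 called members in each direction, or 3 for a difference, ranked by log2 ratio among those averaging 10 CPM or more, without overlap between fractions where 2 groups were compared. The members and lists were chosen with earlier results of these data known.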

Additional observations from a re-analysis of the deposited data

Results flagged for a closer look

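Differences in P-body enrichment between cell types, tested as interactions by edgeR with Benjamini-Hochberg adjustment, were called for 31 members between naive and primed cells, for 49 between naive cells and MEFs and for 12 between day 3 control cells and MEFs. These comparisons share naive or MEF libraries. Between naive and primed cells the largest called differences in each direction among members of at least 10 CPM were 1.74 for Usp53, 1.6 for Ube2v2, 1.46 for Usp44, -1.36 for Ube2m, -1.17 for Ube2a and -0.97 for Ube2d1. Below that level Usp26, Ube2l6, Usp51 and Ube2e2 were called as well, with 4.93, -4.36, 3.56 and -1.17. Between naive cells and MEFs the largest were 3.72 for Usp53, 2.48 for Usp13, 2.08 for Usp25, -2.84 for Ube2l6, -2.13 for Ube2a and -2.06 for Ube2m. Ube2l6 had 9.77 and 21.5 CPM in naive cytoplasm and 3.42 and 2.66 CPM in naive P-bodies. Between day 3 control cells and MEFs the largest were 1.22 for Usp9x, 1.13 for Usp53, 1.08 for Usp47, -1.66 for Ube2m, -0.68 for Usp24 and -0.68 for Ube2a. The groups held 2 or 3 samples, too few for a check for single outlying values.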

How the results depend on the processing

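The direction and call of most results were kept under the alternatives, with these exceptions. With all groups of a table in 1 fit, members called went from 49 to 31 in primed cells, 0 to 18 in day 3 control cells, 27 to 14 with the Nudt21 shRNA, 0 to 4 in total RNA after DDX6 depletion and 12 to 19 for day 3 control minus MEFs. DESeq2 called 13 members in day 3 control cells, 13 in Ago2 KO cells and 3 in total RNA, and without a filter 11, 14 and 3 were called there and 20 for day 3 control minus MEFs. The filter of edgeR's filterByExpr gave 1 in day 3 control cells. No filter and 1 fit each moved the split of naive minus MEFs from 34 higher and 15 lower to 42 and 9. The cause of these changes was not tested.

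Deviations of samples with the same replicate number correlated at 0.173 in day 3 control, 0.199 in Nudt21 shRNA and 0.583 in Ago2 KO cells, each sample matching its own number best, with only 2 pairs each, and at -0.379 to 0.199 elsewhere. No label says what the numbers share, so they were not taken as pairs. With the replicate number as a block, 7 members were called in day 3 control cells and 26 in Ago2 KO cells (14 higher and 12 lower), 45 in naive, 50 in primed and 56 in MEF cells.

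Leaving out 1 library, with a lone sample assumed to vary like the others, gave 18 to 65 members in naive, 38 to 51 in primed, 29 to 60 in MEF, 0 to 54 in day 3 control, 6 to 45 in Nudt21 shRNA and 1 to 38 in Ago2 KO P-bodies, 50 to 60 and 59 to 63 for control and DDX6-depleted occupancy, 0 to 23 for total RNA, 23 to 52 for naive minus primed (52 without naive cytoplasm replicate 2), 39 to 55 for naive minus MEF, 1 to 33 for day 3 control minus MEF, 0 to 12 for Nudt21 shRNA minus control and 0 to 0 for DDX6-depleted minus control occupancy. Usp10, not called with all libraries, was called in opposite directions without 1 or the other naive cytoplasm library, as its naive ratio of -0.24 became 0.18 without replicate 1 and -0.55 without replicate 2, and its naive minus primed difference of 0.09 became 0.50 and -0.23. With 2 samples a group and 6769727 reads in the shallowest library, small differences of weakly expressed members were not detectable.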
